A study of Mus musculus with 4 samples.

Results

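The cells described here are the Pi16 Dpp4 interstitial progenitors of mouse fat: 1393 of the 7898 cell barcodes kept in the library of the sorted fat population P2, and of 11934 barcodes kept in the 4 libraries of the series. They were chosen by their own counts: barcodes with at least 1000 UMIs (unique molecular identifiers, each standing for 1 captured transcript), at least 500 genes and at most 10% mitochondrial UMIs were kept, and members had Pi16 at 70 or more UMIs per 10000 of the barcode, at least 3 Dpp4 UMIs, and Col4a1 plus Col4a2 under 25 UMIs per 10000. The members were 17.6% of the kept barcodes, with an exact Clopper-Pearson 95% interval of 16.8 to 18.5% that covers counting error only. They are set beside the other 6505 kept barcodes of the same library, called the other barcodes below.

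The series sorted vessel progenitor cells from fat and lung of C57BL/6 mice into the populations P1 and P2, with 1 droplet-based 3' single-cell library for each tissue and population. The P2 gate took cells that were CD45-, Ter119-, Tie2+, PDGFRa+, CD31-, CD105low and Sca1high, so the members and the other barcodes all passed a sort on the Tie2 receptor and PDGFRa. The P1 gate took cells that were CD45-, Ter119-, Tie2+, PDGFRa-, CD31+, CD105high and Sca1low. The depot, the sex, age and number of animals, and whether animals were pooled are not given in the sources used here.

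Pi16 encodes peptidase inhibitor 16, a secreted and membrane-bound protein of fibroblasts, and Dpp4 encodes the cell-surface dipeptidyl peptidase also known as CD26, which removes dipeptides from the N terminus of proteins. In mouse subcutaneous fat, stromal cells that carry both are known from the fibrous interstitium around the lobules, and have been described as progenitors that give rise to Icam1-positive committed preadipocytes and to F3-positive stromal cells, which have been described as restraining adipogenesis. Col4a1 and Col4a2 encode the chains of basement membrane collagen IV, which developing fat cells lay down around themselves.

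With 1 library there is no replicate, so every difference below is a description of this library and none was tested. A level is the gene's UMIs summed over a group of barcodes and given per 1000000 UMIs of that group (CPM), and a ratio is the log2 of the members' CPM over the other group's after 10 CPM were added to both. A gene counts as higher or lower when that ratio reaches 2-fold and the gene has at least 50 CPM in 1 of the groups. The members held 8102584 UMIs and the other barcodes 35496488, with medians of 5469 and 5051 UMIs, 2191 and 2064 genes, 2.61% and 2.96% mitochondrial UMIs, and 14.9% and 13.5% ribosomal protein UMIs per barcode. Dpp4 at 3 UMIs is a rule that shallow barcodes meet less easily, and the 587 barcodes that missed the rule on Dpp4 alone had a median of 3363 UMIs.

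Some barcode sequences recurred between libraries: fat P2 shared 54 with the library labelled lung P1, 8 with the one labelled fat P1 and 5 with lung P2. Among the members 14 were shared with another library, 9 of them with labelled lung P1, against 51 of the other barcodes, 44 of them with labelled lung P1. Leaving all shared barcodes out left 1379 members, with 13 genes higher and 101 lower, against 12 and 101 with them. The P1 libraries carry tissue markers that go against their labels, so they are named only as labelled.

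The rule found no barcode outside fat P2. In lung P2, 0 of 1436 kept barcodes met it, which allows a share of up to 0.209%, the share that 3 barcodes would make. In the library labelled fat P1 it was 0 of 1948, which allows up to 0.154%, and in the one labelled lung P1 0 of 652, which allows up to 0.460%. Lung P2, labelled fat P1 and labelled lung P1 were shallower, with medians of 2150, 2964 and 1561 UMIs per kept barcode. The median in fat P2 was 5151.5. Shallow barcodes meet the limit of 3 Dpp4 UMIs less easily, so these shares are limits for the rule and not for the cell type. In lung P2, 2 barcodes had Pi16 at 70 or more per 10000 and 6 had at least 3 Dpp4 UMIs, with none meeting all conditions. Over whole libraries Pi16 stood at 4218 CPM in fat P2 and at 204 CPM in lung P2, 0.922 CPM in labelled fat P1 and 34.9 CPM in labelled lung P1. Other markers of the label were also found elsewhere: Sema3c had 641 CPM in fat P2 and 1005 CPM in labelled fat P1, and Dpp4 had 559 and 210 CPM.

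The label names 6 markers, of which Pi16 and Dpp4 belong to the rule. Pi16 ran from 70.02 to 206 UMIs per 10000 among the members with a median of 88.9, and from 0 to 226 with a median of 28.0 among the other barcodes. Dpp4 ran from 2.08 to 45.2 per 10000 among the members with a median of 10.0, and from 0 to 39.3 with a median of 3.19 among the others. Both ranges overlap outside the rule because barcodes can fail on the other gene or on collagen IV. The plot of rule genes by barcode shows where these limits fall: the members lie at the right-hand edge, with no gap at 70.

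**Figure D1:**
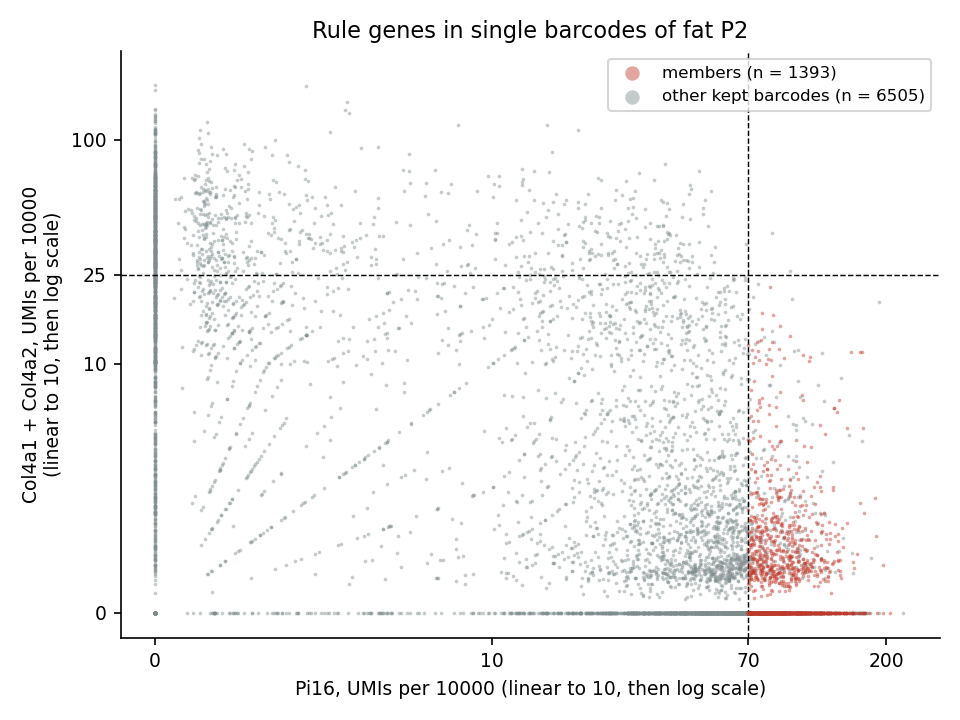
Pi16 (horizontal axis) against Col4a1 plus Col4a2 (vertical axis), both in UMIs per 10000 of the barcode, for each of the 1393 members and the 6505 other kept barcodes of fat P2. Dashed lines stand at the limits of 70 and 25, and grey points to the right of 70 and under 25 are barcodes with fewer than 3 Dpp4 UMIs.

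The 4 markers that the rule did not use were all at higher levels in the members than in the other barcodes. Il33, an alarmin cytokine stored in the nucleus (chr19:29925114-29960718, + strand), had 410 CPM in the members (95% Poisson interval 397 to 425) and 155 CPM in the other barcodes (151 to 159). Sema3c, a secreted semaphorin (chr5:17574281-17730268, +), had 1113 CPM in the members (1090 to 1137) and 533 CPM in the others (525 to 540). Both were past 2-fold, with log2 ratios of 1.35 and 1.05, as were 0.36% of all genes compared in that direction.

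Anxa3, a calcium-dependent phospholipid-binding annexin, had 2077 CPM in the members and 1064 CPM in the others, and Cd55, the complement decay-accelerating factor, had 683 and 375 CPM. Their log2 ratios of 0.96 and 0.85 fell short of 2-fold. The markers are found across much of the library: the members' median of Anxa3 was 19.8 per 10000, and 19.97% of the other barcodes lay above it. For Il33 the members' median was 3.20 per 10000, and 19.6% of the other barcodes lay above it.

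At an equal depth of 2000 UMIs per barcode, which left out 31 members and 676 other barcodes, Il33 was seen in 48.9% of the members (46.2 to 51.6%) and in 22.8% of the others (21.7 to 23.9%). Sema3c was seen in 86.0% and 50.1%, Anxa3 in 97.3% and 64.1%, and Cd55 in 67.1% and 40.4%. Before thinning, the Il33 shares were 74.8% and 36.3%. For comparison, shares were also taken in 138 kept barcodes of the library with under 50 per 10000 of a list of fibroblast genes. This group was chosen after the counts had been seen. Its barcodes were called cells and can hold RNA of their own, so its shares do not measure the level of free RNA. Of the 138, 94 reached 2000 UMIs. There Il33 was seen in 3.19%, Sema3c in 0 of 94, which allows up to 3.19% by the same limit of 3 barcodes, Anxa3 in 24.5% and Cd55 in 10.6%. The median depths before thinning were 5469 UMIs in the members, 5051 in the others and 2554 in those 138.

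**Figure D2:**
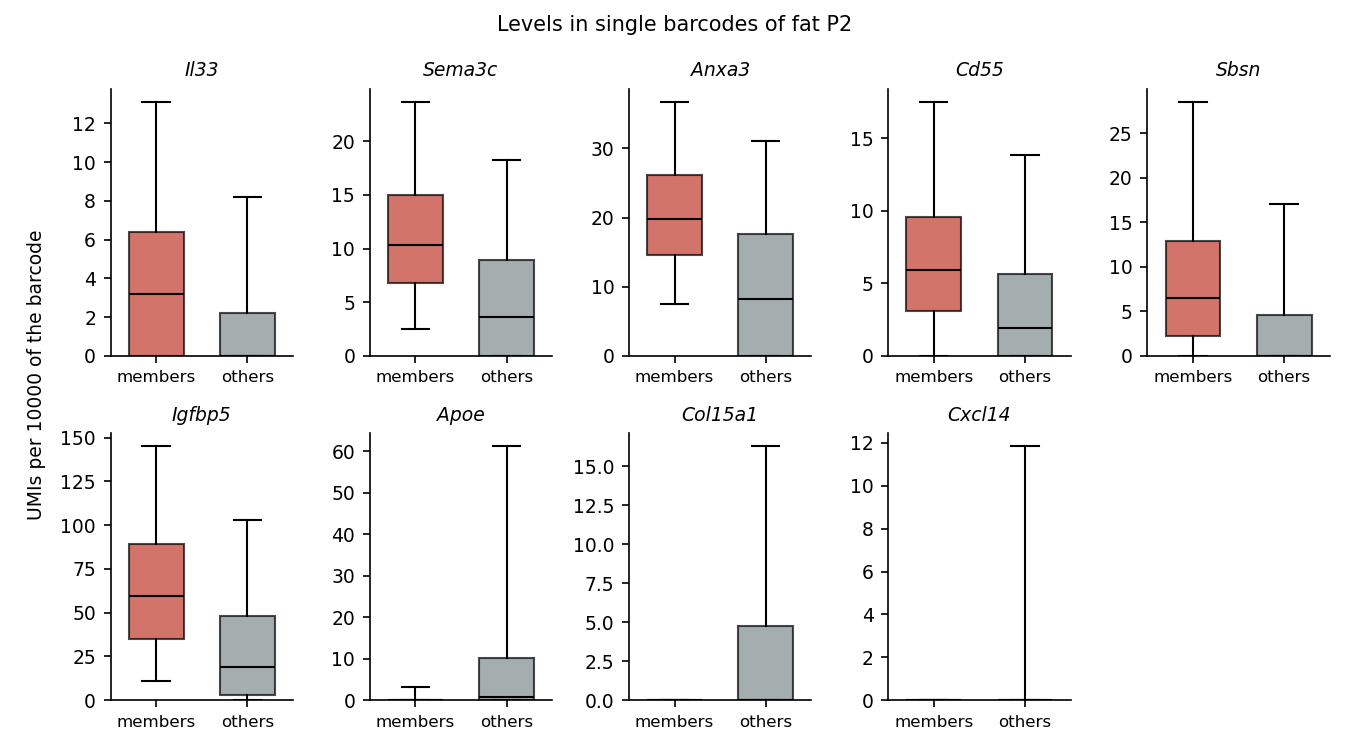
UMIs per 10000 of the barcode for 9 genes in the 1393 members (left) and the 6505 other barcodes (right), with boxes from the lower to the upper quartile, a line at the median and whiskers from the 5th to the 95th percentile of barcodes. Il33, Sema3c, Anxa3, Cd55, Sbsn and Igfbp5 have the higher median in the members. Apoe has a median of 0 in the members and 0.700 in the others, and Col15a1 and Cxcl14 have a median of 0 in both.

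Markers of other cell types were low. All 12 genes of the fibroblast list reached 50 CPM in both groups, and summed to 44221 CPM in the members and 49180 CPM in the others. The endothelial list summed to 23.0 and 61.3 CPM, with Cldn5, Tie1 and Ptprb at 0 UMIs in the members, and the mural list to 33.4 and 92.3 CPM. No member reached 20 UMIs per 10000 of any of the 14 lists for cells other than fibroblasts, while up to 86 of the other barcodes did, for the epithelial and for the mammary list. The highest sum in a single member was 18.7 per 10000, for the mesothelial list, in which Msln, Upk1b, Lrrn4 and Muc16 were at 0. Mbp, of the Schwann cell list, had 68.0 CPM in the members and 30.5 CPM in the others, with Sox10 and Foxd3 at 0 in the members. Of the genes of the sort gate, Tek (Tie2) had 241 CPM in the members and 146 CPM in the others, Ly6a (Sca1) 2545 and 1778 CPM, and Pdgfra 309 and 479 CPM. Eng (CD105) had 46.3 and 46.7 CPM, Pecam1 (CD31) 0.741 and 2.76 CPM, and Ptprc (CD45) 0 and 1.63 CPM. Tek was seen in 40.9% of the members and 24.1% of the others at 2000 UMIs, against 3.19% of the barcodes low in fibroblast genes.

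The difference between members and other barcodes was lopsided. Of 3335 genes at 50 CPM or more, the 4 rule genes left out, 12 were at least 2-fold higher in the members (0.36%) and 101 were at least 2-fold lower (3.03%), and the median log2 ratio over all of them was 0.00. A gene that reached 50 CPM in 1 of the groups only could only come out higher in that group. The rule used the same contrast, so these counts say how the chosen barcodes differ and support nothing further. Krtdap had the highest ratio at 1.48 and Cxcl14 the lowest at -3.97.

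The other barcodes are themselves mixed. They include the 587 that missed the rule on Dpp4 alone and 2149 that missed it on Pi16 alone, in which many of the members' genes are high, and 1241 with collagen IV at or above the limit. A ratio against all of them therefore averages over unlike cells. Against the 1241 alone, 252 genes were higher in the members and 256 lower, so the lopsided count holds for the comparison with all other barcodes. Ratios against single groups are given further on.

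Besides Il33 and Sema3c, the genes past 2-fold upwards were Krtdap, Sbsn, Bmp3, Itgb7, Akr1c18, Aldh1a3, Igfbp5, Dmkn, Ildr2 and Akr1c14. Igfbp5, a binding protein for insulin-like growth factors, was by far the most abundant, at 6643 CPM in the members and 3058 CPM in the others. It ran from 0 to 281 per 10000 with a median of 59.5 in the members, and from 0 to 279 with a median of 18.9 in the others, so the ranges are alike and the middles are apart. Bmp3, a secreted member of the BMP family, had 115 and 40.7 CPM, and Itgb7, an integrin chain known from lymphocyte homing, had 114 and 41.5 CPM. Bmp3, Itgb7 and Akr1c14 reached 50 CPM in the members only, so they could only come out higher.

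Aldh1a3, an enzyme of retinoic acid synthesis, had 293 CPM in the members and 128 CPM in the others. Ildr2, an immunoglobulin-like membrane protein, had 196 and 91.4 CPM, and was past 2-fold in 14 of 20 alternative settings. Akr1c18, the mouse enzyme that inactivates progesterone, had 504 and 211 CPM, and its neighbour Akr1c14, a steroid dehydrogenase, had 85.5 and 37.3 CPM. The genes lie close together (chr13:4132615-4150654, - strand, and chr13:4049011-4090688, + strand) and are paralogs. How reads that fit both were counted was not checked, and the values are uncertain to that extent. Their relatives Akr1c13 and Akr1c19, in the same stretch, had 0 and 0.741 CPM in the members and 0.282 and 1.18 CPM in the others.

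**Figure D3:**
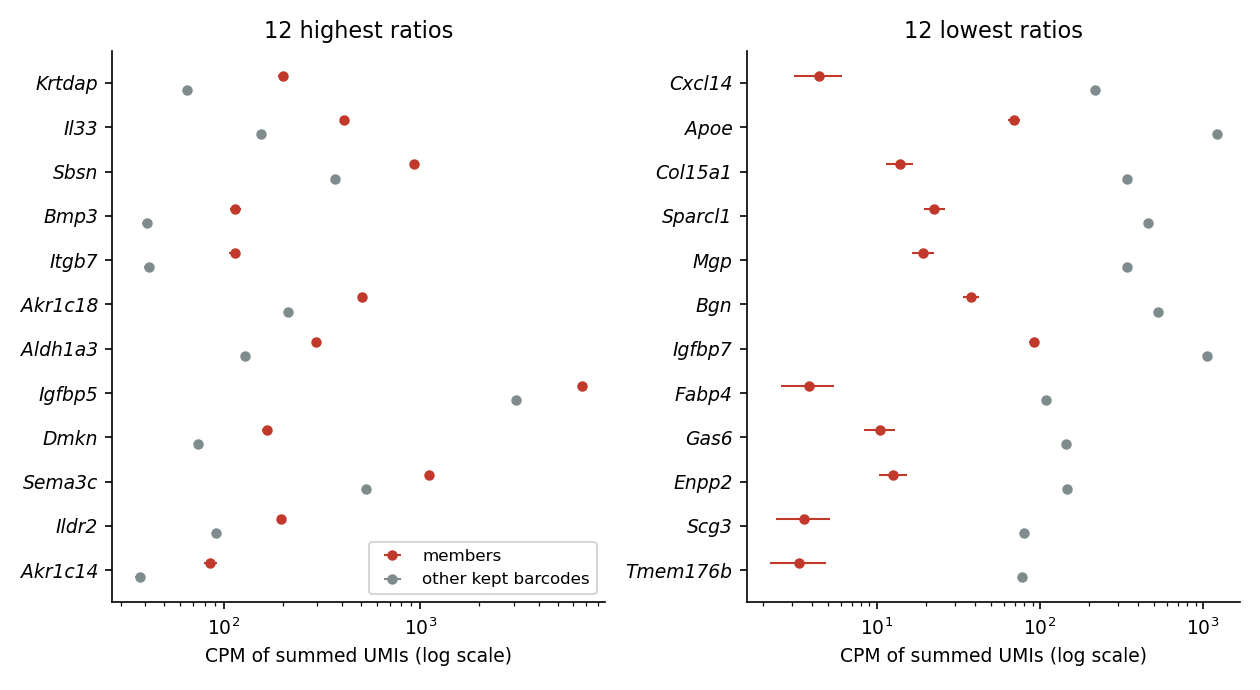
CPM of summed UMIs on a log scale for the 12 genes with the highest and the 12 with the lowest log2 ratio, the rule genes Pi16, Dpp4, Col4a1 and Col4a2 left out, members in red above the other kept barcodes in grey. Bars are exact 95% Poisson intervals, which cover counting error only. The higher genes differ by ratios of 1.01 to 1.48 on the log2 scale and the lower ones by -3.97 to -2.72.

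Krtdap, Sbsn and Dmkn, all among these 12, are neighbours on the same strand of chromosome 7 and encode secreted proteins best known from the upper layers of the epidermis: keratinocyte differentiation-associated protein, suprabasin and dermokine. Sbsn had 934 CPM in the members (913 to 955) and 368 CPM in the others (361 to 374). Krtdap had 200 CPM (190 to 210) and 65.2 CPM (62.6 to 67.9), and Dmkn had 165 CPM (157 to 174) and 74.2 CPM (71.4 to 77.1). Within 100 kb on either side, the only other gene to reach 50 CPM was Tmem147, at 79.1 and 69.3 CPM. At 2000 UMIs, Sbsn was seen in 67.6% of the members, 32.3% of the others and 11.7% of the barcodes low in fibroblast genes. For Krtdap these shares were 23.3%, 8.29% and 0 of 94, and for Dmkn 17.9%, 8.30% and 1.06%.

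Members varied widely in this trio. Their sum ran from 0 to 94.7 per 10000 with a median of 7.97 in the members, and from 0 to 126 with a median of 0 in the others. It was 0 in 214 members (15.4%) and in 3456 other barcodes (53.1%), and at 20 per 10000 or more in 286 members (20.5%) and 433 others (6.66%). More of the barcodes at 20 or more therefore lay outside the rule than inside it.

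Because the 3 genes were higher together, their promoters are shown. Each run covers 250 bases before to 10 after a start that RefSeq annotates on GRCm38.p6, the build mm10 is made from, 5' to 3' on the + strand, with the letters TGAGTCA in capitals. TGAGTCA is the consensus of the AP-1 factors, and the motif was chosen after these windows had been read. Dmkn is shown at its first start and at an internal one.

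Sbsn, chr7:30751221-30751480: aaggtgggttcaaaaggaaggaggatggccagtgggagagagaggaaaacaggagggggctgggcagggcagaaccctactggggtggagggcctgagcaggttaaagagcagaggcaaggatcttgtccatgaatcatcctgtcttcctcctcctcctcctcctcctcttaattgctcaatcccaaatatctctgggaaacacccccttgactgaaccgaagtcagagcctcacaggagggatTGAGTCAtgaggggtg

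Dmkn, first start, chr7:30763506-30763765: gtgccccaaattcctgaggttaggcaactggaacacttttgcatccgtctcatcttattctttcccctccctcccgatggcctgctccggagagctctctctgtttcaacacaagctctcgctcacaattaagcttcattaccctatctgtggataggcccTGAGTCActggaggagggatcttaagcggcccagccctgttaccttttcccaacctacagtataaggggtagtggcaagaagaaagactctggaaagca

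Dmkn, internal start, chr7:30776155-30776414: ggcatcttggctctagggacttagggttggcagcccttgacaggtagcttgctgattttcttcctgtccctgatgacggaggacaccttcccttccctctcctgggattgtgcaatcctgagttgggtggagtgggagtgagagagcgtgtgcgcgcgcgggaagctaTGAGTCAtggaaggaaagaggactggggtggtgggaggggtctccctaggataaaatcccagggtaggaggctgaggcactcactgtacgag

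Krtdap, chr7:30787655-30787914: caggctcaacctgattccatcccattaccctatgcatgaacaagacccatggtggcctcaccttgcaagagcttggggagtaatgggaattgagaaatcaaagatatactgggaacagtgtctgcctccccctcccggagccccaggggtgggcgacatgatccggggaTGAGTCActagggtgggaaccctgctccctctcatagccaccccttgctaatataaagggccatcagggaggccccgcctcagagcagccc

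Each of these windows held the motif once, on the + strand. Its first base lay 6 bases before the start in Sbsn, 89 and 82 bases before the first and the internal start of Dmkn, and 81 bases before that of Krtdap. Searched on both strands (TGAGTCA or TGACTCA), the motif was in 1526 of 32851 windows of the same length (4.65%), and in at least 1 window of 111 of the 2618 genes at 50 CPM or more that had a window (4.24%). It was in 5 of 70 lower genes with a window (7.14%). Among the 10 higher genes with a window it was in these 3 only. The motif was chosen from the windows of these 3, so their count was fixed in advance and cannot be set against the other shares. This describes the letters only, and says nothing of whether a factor binds there.

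A list of 20 further genes known from interstitial progenitors leaned the same way as the label's markers without any gene past 2-fold. Of these, 19 reached 50 CPM, and 0 were past 2-fold higher and 0 lower, while all 19 ratios were above 0, with a median of 0.72. Bmp7 reached 50 CPM in the members only, so its ratio had to be above 0. The largest were Limch1, an actin-binding protein, with 191 CPM in the members and 91.8 CPM in the others, Bmp7 with 72.4 and 32.6 CPM, Pcsk6, a proprotein convertase, with 476 and 243 CPM, and Efhd1, a calcium-binding protein of mitochondria, with 449 and 230 CPM. At the low end, Has1, a hyaluronan synthase, had 356 and 341 CPM. Stmn4 stayed under the minimum, at 45.3 and 34.8 CPM. Summed per barcode, the list ran from 64.9 to 343 per 10000 with a median of 165 in the members, and from 0 to 492 with a median of 113 in the others.

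Genes known from committed preadipocytes were lower. The list has 21 genes, of which 17 reached 50 CPM, 13 of them only in the other barcodes, so those 13 could only come out lower. Of the 17, 15 were past 2-fold lower, against 3.03% of all genes compared, and the median log2 ratio was -2.21. Cxcl14, a chemokine, had 4.44 CPM in the members and 216 CPM in the others, Apoe, a lipid carrier, 69.2 and 1211 CPM, Col15a1, a collagen of basement membranes, 13.8 and 343 CPM, and Sparcl1, a secreted matrix glycoprotein, 22.5 and 460 CPM. Cxcl14 was seen in 0.661% of the members and 12.8% of the others at 2000 UMIs, and no member had more than 3.998 per 10000, while the highest other barcode had 203.

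The list was not at 0 in the members. Lpl, the lipase that frees fatty acids from lipoproteins, still had 438 CPM in the members, against 1309 CPM in the others. Gpc3, a membrane-bound proteoglycan, was the only one of the 17 with a ratio above 0, at 489 and 394 CPM. Icam1, the adhesion molecule that marks the committed state in mouse fat, had 7.03 and 80.4 CPM. Pparg, the master regulator of adipogenesis, had 2.59 and 17.2 CPM, under the minimum in both groups, and Fabp4, a fatty acid carrier of fat cells and their precursors, had 3.83 and 109 CPM. Lpl, Icam1, Gpc3 and Pparg are named for what they are known for, with their values seen. Summed per barcode, the 21 genes ran from 0 to 69.7 per 10000 with a median of 11.6 in the members, and from 0 to 482 with a median of 27.4 in the others.

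The list of F3-type regulatory stroma behaved alike. Of its 12 genes 8 reached 50 CPM, 6 of them only in the other barcodes, and all 8 were past 2-fold lower, against 3.03% of all genes compared, with a median log2 ratio of -2.45. Mgp, an inhibitor of calcification, had 19.3 CPM in the members and 341 CPM in the others, Bgn, the proteoglycan biglycan, 37.6 and 527 CPM, Gas6, a ligand of the TAM receptors, 10.5 and 144 CPM, and F3, tissue factor, 6.66 and 89.98 CPM. The remaining genes among the 12 lowest ratios were Igfbp7, with 91.8 and 1057 CPM, Enpp2, which makes lysophosphatidic acid, with 12.6 and 146 CPM, Scg3, a granin, with 3.58 and 80.2 CPM, and Tmem176b with 3.33 and 78.0 CPM.

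**Figure D4:**
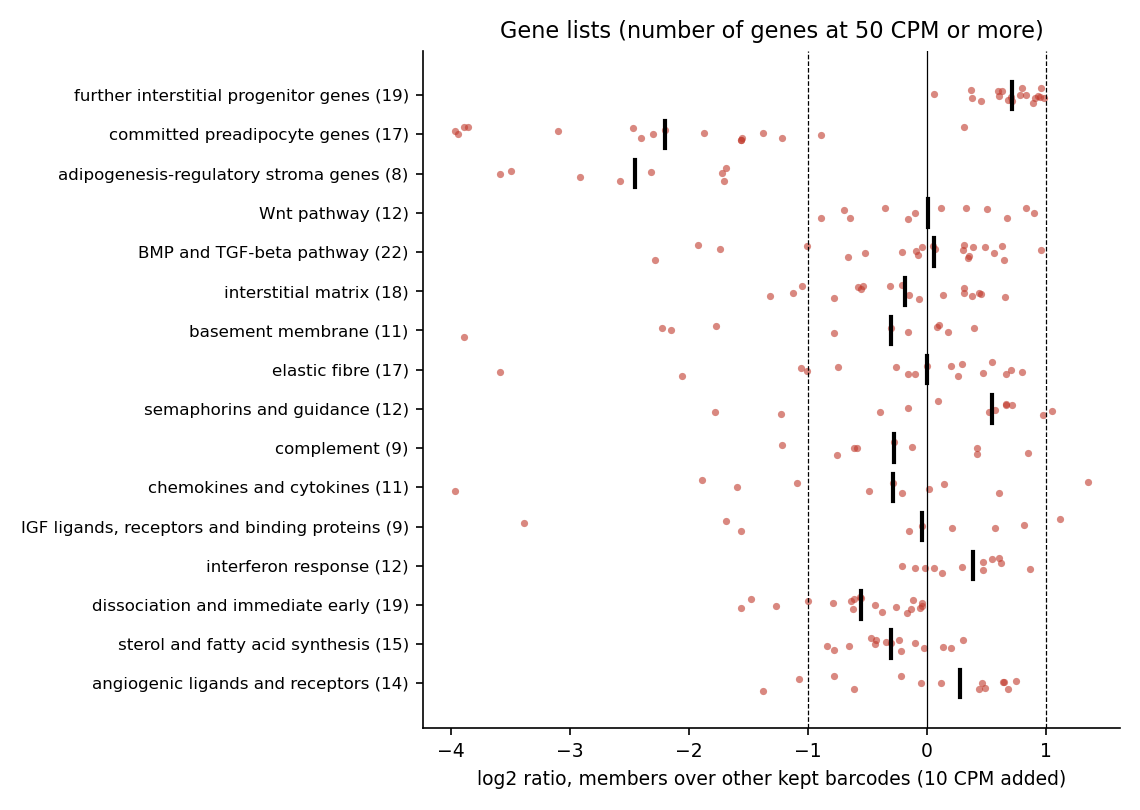
Log2 ratio of the members' CPM over that of the other kept barcodes, with 10 CPM added, for each gene at 50 CPM or more (points) in 16 lists, with the median of the list as a bar and dashed lines at 2-fold. The progenitor list lies at 0.06 to 0.98, while the preadipocyte and regulatory stroma lists have medians of -2.21 and -2.45.

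The matrix lists held 0 genes past 2-fold higher. In the lists that follow, counts are to be read against the 0.36% of all genes compared that were past 2-fold higher and the 3.03% that were past 2-fold lower. In these lists, genes that reached 50 CPM in the other barcodes only had to come out lower. Those that reached it in the members only had to come out higher, and the counts are a description. Of 18 interstitial matrix genes 0 were past 2-fold higher and 3 lower: Col5a3 with 230 CPM in the members and 590 CPM in the others, Postn, periostin, with 491 and 1086 CPM, and Col6a3 with 423 and 887 CPM. Col1a1 differed less, at 4670 and 5813 CPM. On the other side Col14a1, a fibril-associated collagen, had 1351 and 855 CPM and Fn1, fibronectin, 4078 and 2975 CPM, both short of 2-fold.

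Of 11 basement membrane genes, 3 of which reached 50 CPM only in the other barcodes, 4 were lower and 0 higher: Col15a1, Col18a1 with 16.7 and 115 CPM, Smoc2 with 82.1 and 399 CPM, and Nid2 with 7.65 and 50.5 CPM. The laminin chain Lamc1, at 662 and 616 CPM, and Nid1, at 1986 and 1513 CPM, were not among them. Collagen IV was held low by the rule and tells nothing here.

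Of 17 elastic fibre genes, 4 were lower (Mgp, Mfap4, Lox and Ltbp4) and 0 higher, around a median of 0.00. Lox, which crosslinks collagen and elastin, had 59.4 CPM in the members and 135 CPM in the others. Mfap4, a microfibril-associated protein, had 5.92 and 56.5 CPM. Of the 17 ratios, 8 were above 0 and 9 below. Among those above, none past 2-fold, Mfap5, a microfibril protein, had 2841 and 1627 CPM, Eln, elastin, 942 and 591 CPM, and Fbn1, fibrillin-1, 2450 and 1678 CPM. Of 9 small leucine-rich proteoglycans, Bgn, Podn and Lum were lower. Lum, at 816 and 1647 CPM, lay at the limit and was past 2-fold in 10 of 20 alternative settings, while Dcn, decorin, had 12540 and 14022 CPM. Of 22 matrix proteases and inhibitors only Mmp3, stromelysin-1, was past 2-fold, at 76.5 and 505 CPM. Of 7 hyaluronan genes none was, and the precursor enzymes Ugdh and Gfpt2 had 1230 and 608 CPM in the members, against 799 and 389 CPM in the others. Genes named here beyond the largest ratios of a list were picked with their values seen.

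Among secreted signals, the Wnt ligands Wnt2 and Wnt10b were on the high side, with 284 and 92.1 CPM in the members against 155 and 44.9 CPM in the others. Wnt10b reached 50 CPM in the members only, so it could only come out higher. Sfrp1, a secreted Wnt inhibitor, had 32.1 and 68.3 CPM, and the receptor Fzd4 had 32.0 and 58.3 CPM. None of the 12 Wnt pathway genes at 50 CPM or more was past 2-fold in either direction, and their median log2 ratio was 0.01. Wnt2 was seen in 42.1% of the members and 24.1% of the others at 2000 UMIs, and in 0 of the 94 barcodes low in fibroblast genes.

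Of 22 BMP and TGF-beta pathway genes 0 were past 2-fold higher and 4 lower. Among the lower ones were Thbs1 and Tgfbi, which are known as TGF-beta targets, with 10.1 and 49.1 CPM in the members and 66.4 and 188 CPM in the others. The latent TGF-beta binding protein Ltbp4 was lower too, with 118 CPM in the members and 247 CPM in the others, but past 2-fold in only 12 of 20 alternative settings. The receptor Tgfbr2 was on the high side, at 944 and 606 CPM.

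Of 12 semaphorin and guidance genes, Sema3c was higher and the ligand Slit2 and the semaphorin and VEGF co-receptor Nrp1 were lower, with 7.90 and 39.7 CPM in the members and 51.7 and 107 CPM in the others. Sema3d, with 117 and 54.5 CPM, was just short of 2-fold. Of 9 genes of the insulin-like growth factor system, Igfbp5 was higher, and Igfbp7, Igfbp3 and the ligand Igf1 were lower, Igf1 at 90.2 and 287 CPM. Of 6 retinoid genes Aldh1a3 was higher, while Dhrs3 and Adh1, which interconvert retinol and retinal, were among those lower. Dhrs3 had 14.1 CPM in the members and 51.0 CPM in the others, and Adh1 had 22.3 and 62.0 CPM.

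Of 11 chemokine and cytokine genes Il33 was higher and 4 were lower: Cxcl14, Cxcl12 with 73.9 CPM in the members and 302 CPM in the others, Cxcl1 with 57.0 and 193 CPM, and Ccl2 with 26.2 and 67.2 CPM. Of 9 complement genes, C2 was lower, with 29.9 and 83.0 CPM. C3, the central component, had 3911 and 2919 CPM. Of 14 angiogenic ligand and receptor genes, 0 were higher and Fgf10 and Angptl1 were lower, with 13.5 and 19.6 CPM in the members and 50.9 and 52.6 CPM in the others. Vegfa, the endothelial growth factor, had 83.6 and 98.7 CPM. Of 10 surface markers of mesenchymal stromal cells, only the tetraspanin Cd9 was past 2-fold, at 31.1 and 222 CPM. Of 22 transcription factors only Nr2f2, COUP-TFII, was, at 13.3 and 64.7 CPM, a share near the 3.03% of all genes, and Creb5 had 780 and 451 CPM.

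Immediate early and dissociation genes, which tissue digestion is known to induce, were on the low side in the members. All 19 of the list at 50 CPM or more had a ratio below 0, with a median of -0.56, and 4 were past 2-fold lower, against 3.03% of all genes. Ier2 had 349 CPM in the members and 1052 CPM in the others, Zfp36 466 and 1318 CPM, Junb 904 and 2193 CPM, and Jun 2229 and 4471 CPM. Jun lay at the limit and was past 2-fold in 12 of 20 alternative settings. Fos, at 4589 and 6207 CPM, differed less. The list thus differs between the same groups as every other gene described here, and its part in those differences was not tested.

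Of 12 interferon response genes 0 were past 2-fold, with Ifit1 at 94.3 and 47.4 CPM the farthest up and a median of 0.38. Of the 12, 2 reached 50 CPM in the members only, Ifit1 among them, and could only come out higher. Of 15 sterol and fatty acid synthesis genes 0 were, with Hmgcs1 at 104 and 195 CPM the farthest down and a median of -0.30. Of 4 position genes none was. No proliferation gene reached 50 CPM: Mki67 had 0 CPM in the members and 0.648 CPM in the others, and Top2a 0.370 and 0.563 CPM.

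Members differed least from the 587 barcodes that met the rule except for Dpp4. Of 3223 genes compared, 0 were past 2-fold higher and 0 lower (0% and 0%), with ratios from -0.54 for Mrgprg to 0.73 for Hspb1, a small heat shock protein. Il33 had 410 CPM in the members and 423 CPM in those barcodes, Sema3c 1113 and 1112 CPM, and Apoe 69.2 and 58.9 CPM. Dpp4, which chose the groups, had 1040 and 360 CPM.

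The members stood farther from the 1241 barcodes with collagen IV at 25 or more per 10000. Of 3547 genes compared, the 4 rule genes left out, 252 were higher in the members (7.1%) and 256 lower (7.22%). Il33 had 410 CPM in the members and 31.2 CPM in the collagen IV-high barcodes, Sbsn 934 and 87.1 CPM, and Akr1c18 504 and 46.6 CPM. In the other direction Cxcl14 had 4.44 and 708 CPM, Col15a1 13.8 and 939 CPM, and Pparg 2.59 and 43.9 CPM.

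From the 315 other barcodes with F3, Clec11a and Fmo2 at 10 or more per 10000 together, 283 of 3476 genes were higher in the members (8.14%) and 219 lower (6.3%). Anxa3 had 2077 CPM in the members and 221 CPM in the F3 barcodes, and Dmkn 165 and 10.9 CPM. Mgp had 19.3 and 2655 CPM, Apoe 69.2 and 3802 CPM, Gas6 10.5 and 820 CPM, and Inmt, a methyltransferase, 35.3 and 1554 CPM. The rule genes and F3, Clec11a and Fmo2, which chose those barcodes, were left out. Each near group was defined from counts, so these counts too are descriptions.

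The 2149 barcodes that missed the rule on Pi16 alone lay in between for the genes given here. Il33 had 410 CPM in the members, 214 in those barcodes and 31.2 in the collagen IV-high ones, and Apoe had 69.2, 448 and 1909 CPM in the same groups. The 24 immediate early and dissociation genes summed to 19138 CPM in the members, 17500 in the barcodes that missed on Dpp4, 24120 in those that missed on Pi16, 38781 in the collagen IV-high and 30525 in the F3 barcodes.

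Levels of the genes given here followed Pi16 across its whole range, below the limit as well as above it. Pi16 is a rule gene, and most of the binned genes had already been named as markers or for their ratio. Such a trend was therefore largely fixed by their choice, and is a description. Among the barcodes under 25 per 10000 of collagen IV, sorted into bins of Pi16 at 0 to 10, 10 to 30, 30 to 50, 50 to 70, 70 to 100 and 100 or more per 10000, Il33 had 41.2, 104, 208, 292, 387 and 473 CPM. Apoe had 2983, 693, 459, 212, 79.1 and 39.3 CPM, and Cxcl14 213, 77.4, 60.5, 25.1, 4.91 and 3.60 CPM. Anxa3 had 235 CPM in the lowest bin, 1126 in the next and 2127 in the highest, so most of its difference lay below the limit. Junb had 3500 CPM in the lowest bin and 770 CPM in the highest. The bins held 1438, 804, 1185, 1250, 1328 and 652 barcodes, and the upper 2 include barcodes with fewer than 3 Dpp4 UMIs.

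**Figure D5:**
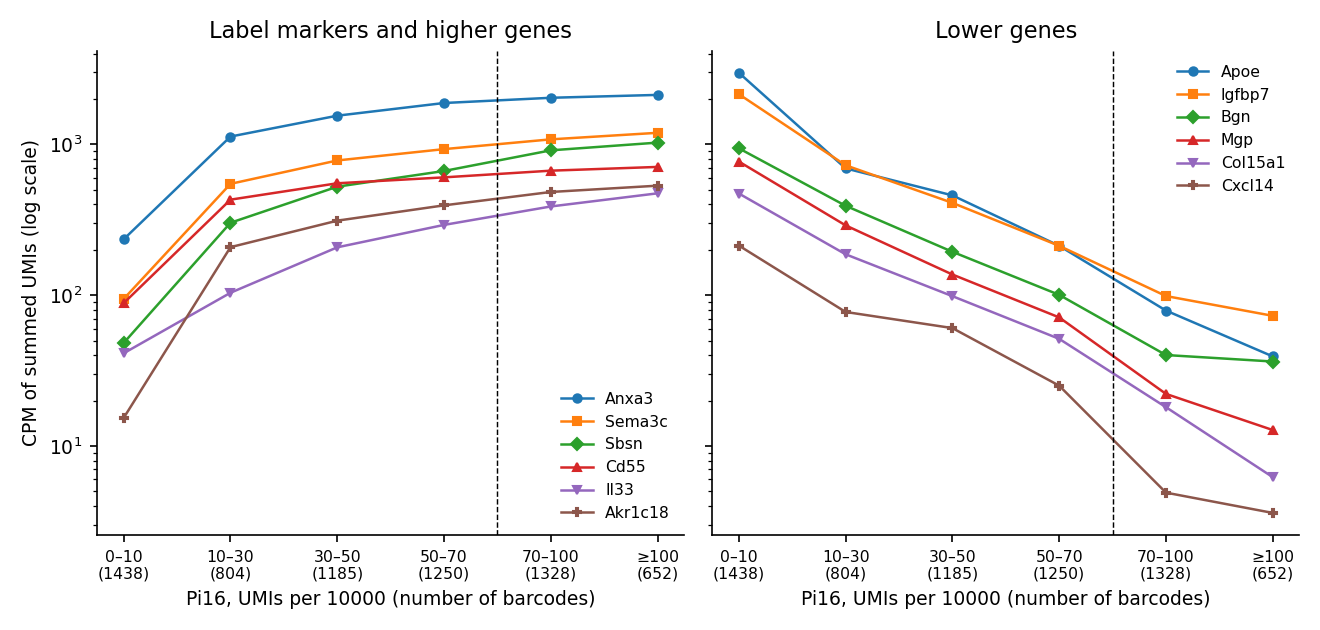
CPM of summed UMIs (log scale) by bin of Pi16 in UMIs per 10000, for fat P2 barcodes with Col4a1 plus Col4a2 under 25 per 10000, with the number of barcodes in brackets and a dashed line at the limit of 70. Left are 4 markers of the label with Sbsn and Akr1c18, which are highest in the upper bins, and right are 6 lower genes, of which Apoe runs from 2983 CPM in the lowest bin to 39.3 CPM in the highest.

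Just inside the limit, the 397 members with Pi16 at 70 to under 80 per 10000 had 355 CPM of Il33, 113 of Apoe and 7.04 of Cxcl14. Just outside it, the 429 barcodes at 60 to under 70 that met the other conditions had 292, 230 and 34.9 CPM. On the Dpp4 limit, the 267 members with 3 UMIs had 375 CPM of Il33 and 81.1 of Apoe, and the 279 barcodes with 2 UMIs had 437 and 68.5 CPM. Only 2 barcodes missed the rule on collagen IV alone.

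Among the members, 2966 genes were ranked by their variance over that of binomial sampling, with each barcode thinned to 2000 UMIs. The median ratio was 1.03, and 69 genes were over 2. The 10 most variable by the naming rule were Malat1 (17.1), Sparc (7.44), Col3a1 (6.58), Igfbp5 (5.95), Cxcl10 (5.55), Fos (5.49), Hspb1 (4.77), Cxcl13 (4.43), Col1a1 (4.32) and Gsn (4.205). Such variation was not particular to the members: of these 10, only Hspb1 had a lower ratio in the other barcodes (3.71). Malat1 had 22.9 there and Gsn 19.9. The 10 genes are of 2 kinds: abundant genes present in nearly every member, such as Sparc, which was at 0 in 0.220% of members, and genes that few members have. Cxcl10, a chemokine induced by interferon, was at 0 in 95.4% of the members and had at most 15 UMIs, and Cxcl13, the chemokine that draws B cells, was at 0 in 78.9% and had at most 21 UMIs. The tenth of the members richest in Cxcl13 held 78.2% of its UMIs.

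Correlations were taken only between the 30 most variable genes among the members. Over the 1362 members that could be thinned, log counts of the collagens and Sparc went together, with r of 0.61 for Col1a1 with Col3a1 and 0.57 for Col1a1 with Sparc. So did the immediate early genes, with 0.55 for Fosb with Fos and 0.52 for Egr1 with Fos. The lowest values among pairs of these 30 genes were -0.32 for Gpx3, an extracellular glutathione peroxidase, with Igfbp5, -0.26 for Gsn, gelsolin, with Sparc, and -0.25 for Cxcl13 with Igfbp5. These correlations are over cells of 1 library at equal depth, and the counts of a cell share a fixed total. By the sums Cxcl13 had 240 CPM in the members and 238 CPM in the others. Its log2 ratio ran from -0.37 to 1.05 over the alternative settings, and at 2000 UMIs it was seen in 21.1% of the members (18.9 to 23.3%) and 17.4% of the others (16.4 to 18.4%).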

How the data were processed

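The deposited matrices give raw counts of UMIs for each gene in each barcode that had been called a cell. Per the submitters' processing notes they were made with Cell Ranger 3.1.0 on mm10, and per the labels' protocols the libraries were 3' droplet libraries. Each matrix had 31053 gene entries, of which the 35 symbols of several gene IDs were summed. UMIs were summed over the barcodes of a group with Python 3.11.15, numpy 2.4.6, scipy 1.17.1 and pandas 2.3.3. Levels have exact 95% Poisson intervals and shares exact 95% Clopper-Pearson intervals, except that a share of 0 has the limit that 3 barcodes would make; these cover counting error only. No test was run, since barcodes of 1 library are not replicates. Doublets were kept in the values given; the highest Scrublet scores (scanpy 1.11.5) were removed as an alternative, since the automatic threshold called 1 barcode. Alternative scalings used edgeR 4.0.16 and DESeq2 1.42.0 in R 4.3.3. The step from sums to ratios and the thinning were tested on simulated data, and the other steps were not.

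The members and the gene lists were chosen with earlier results of these data known. Genes were named by rule: the label's 6 markers and the 4 rule genes; the 12 highest and 12 lowest ratios, leaving out the rule genes and mitochondrial, ribosomal and numbered transcripts; up to 4 genes of each list with the largest ratios; the 10 most variable genes among members; and 5 in each direction against each of 3 near groups. Other genes were named after their values were seen. Some genes that the rule names are not reported here. Gene coordinates were looked up by gene ID in GENCODE vM21 (GRCm38), and promoter windows from RefSeq on GRCm38.p6. A comparison with lung P2 cells of the same rule was planned and not made, since 0 barcodes met the rule.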

Additional observations from a re-analysis of the deposited data

How the results depend on the processing

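The number of members and of genes past 2-fold was recomputed under 20 alternatives, and no named gene past 2-fold reversed. Pi16 at 50 or more per 10000 gave 2250 members and 30 higher genes, and Pi16 at 100 or more gave 440 members, with 8 of the 12 higher genes still past 2-fold. Against barcodes with collagen IV at 25 or more per 10000 alone, 252 genes were higher and 256 lower. With 1 CPM added before the ratio 24 genes were higher, and with 50 CPM added 5 of the 12 were higher and 56 lower. With genes at 20 CPM or more 181 were lower, and with no minimum 235, since more genes were then compared. Under the remaining alternatives, the number of members lay within 1.5 times of 1393 and the counts within 1.5 times of 12 and 101. Each barcode's UMIs were also split at random into 2 parts, with members chosen on one part and measured on the other. For this choice the Dpp4 limit was lowered from 3 to 2 UMIs, so the number of members is not that of the unchanged rule. These members numbered 1183, with 12 genes higher and 94 lower, and Pi16 at 8677 CPM in them and 3372 CPM in the other barcodes. TMM scaling gave 14 higher and 97 lower genes, and median-of-ratios scaling 15 and 97. Removing the highest Scrublet scores took out 20 members (1.44%) and 479 other barcodes (7.36%), and left 13 higher and 103 lower genes. No paired analysis was possible because each tissue and population has 1 library, and no replicate could be left out. Genes near the minimum and small groups of barcodes are limited by depth.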
